A study of Mus musculus with 6 samples.

Results

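The genes flanking Fbn1 on mouse chromosome 2 were examined in dorsal skin RNA from 3 Tsk and 3 wild-type (WT) samples. They are the protein-coding genes whose start lies between 120.3 and 130.5 Mb on the mm10 genome build, without Fbn1 itself, and whose raw count averaged 10 or more over the 6 libraries. This rule took 117 of the 55291 genes in the table, out of 141 protein-coding genes in the window, and left out 24 below that average. At the edge of the rule, Frmd5 (mean 9.42) and Usp50 (mean 6.55) lay just outside, and Dusp2 (mean 10.2) and Slc28a2b (mean 11.2) just inside.

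Both groups were sampled at day 40. The Tsk samples are labelled as strain B6.Cg-Fbn1Tsk/J with the genotype Fbn1+/-, and the WT samples as strain C57BL/6 with a wild type genotype. Neither group is labelled as treated, and a piece of shaved dorsal skin was used, so each library mixes epidermis, hair follicles, dermis, fat and underlying muscle. Samples carry a number in the labels, with no statement that separate animals gave them. The p-values therefore cover the variation among these samples alone, which may be technical. Library totals ran from 18185272 to 19219622 counts in Tsk and from 17561271 to 18787391 in WT.

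Fbn1 encodes fibrillin 1, the main protein of extracellular microfibrils, and the tight-skin (Tsk) allele is known as a duplication inside that gene. The letters Cg in a strain name mark a congenic line, in which an allele has been moved onto another background by repeated crossing. Such a line can keep donor DNA on both sides of the selected allele, and how far that stretch reaches in these mice is not given in the sources used here. Any effect of the Fbn1 allele on its neighbours and any effect of linked donor DNA therefore cannot be told apart in this comparison. The question set by the window is whether genes close to Fbn1 differed between the groups more than genes farther away.

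Fbn1 lies on the minus strand from 125300594 to 125507993 of chromosome 2. Its level was 1450, 2053 and 1781 CPM in the 3 Tsk libraries and 261, 351 and 296 CPM in the 3 WT libraries, where CPM is the count relative to a library total adjusted by TMM, edgeR's scaling between libraries, scaled to a library of 1000000 counts. Every Tsk library stood above every WT library, and the log2 fold change, given here with its SE, was 2.54 ± 0.24 at an edgeR adjusted p of 0.00401. Few of the flanking genes passed the same test. Of the 116 flanking genes that passed edgeR's filter on low counts, 2 were called changed at an adjusted p under 0.05, which is 1.72%, against 683 of all 19971 genes tested, which is 3.42%. Both called genes, Duox1 and Stard9, were higher in Tsk, where 2.72% of all genes tested were called higher. No flanking gene was called lower, where 0.696% of all genes tested were. No called gene lay within 1 Mb of Fbn1. In edgeR's test 25 flanking genes (21.6%) had an unadjusted p under 0.05, against 20.1% of all genes tested.

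Promoters are shown for the called genes Duox1 and Stard9 and for Il1b, which the filter kept out of the test. The sequences are the 250 bases before the RefSeq start site of each gene (GRCm38.p6), 5′ to 3′ on the gene's own strand. Capitals mark 4 motifs, searched on both strands, none of which contains another. They are the TATA box (TATAAA), the binding motif of the NF-Y factor (CCAAT), the GC box (GGGCGG) and the palindromic E-box (CACGTG).
Duox1, plus strand, chr2:122315422-122315671: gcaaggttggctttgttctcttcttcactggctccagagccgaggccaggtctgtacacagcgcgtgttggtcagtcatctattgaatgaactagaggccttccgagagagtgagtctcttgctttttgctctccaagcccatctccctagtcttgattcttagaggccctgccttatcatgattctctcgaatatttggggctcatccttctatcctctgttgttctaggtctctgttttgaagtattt
Stard9, plus strand, chr2:120628871-120629120: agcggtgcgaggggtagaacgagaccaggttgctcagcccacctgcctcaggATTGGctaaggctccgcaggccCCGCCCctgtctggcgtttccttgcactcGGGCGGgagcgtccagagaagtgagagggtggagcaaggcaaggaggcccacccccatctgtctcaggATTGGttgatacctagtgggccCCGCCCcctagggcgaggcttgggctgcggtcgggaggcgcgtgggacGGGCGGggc
Il1b, minus strand, chr2:129371140-129371389: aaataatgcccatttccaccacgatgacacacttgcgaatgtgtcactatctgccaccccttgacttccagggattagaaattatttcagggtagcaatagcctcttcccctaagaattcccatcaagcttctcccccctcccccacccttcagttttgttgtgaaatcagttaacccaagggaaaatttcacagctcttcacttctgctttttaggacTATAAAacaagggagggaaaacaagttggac
None of the 4 motifs matched in the Duox1 window. The Stard9 window held the CCAAT motif 2 times and the GC box 4 times, with a G and C content of 68.0%, against 47.6% for Duox1 and 44.4% for Il1b. The Il1b window held the TATA box 1 time. Among the 127 promoters that RefSeq lists for 107 of the 117 genes, the TATA box was found in 7.09%, the CCAAT motif in 37.0%, the GC box in 59.1% and the E-box in 5.51%. Over all 32851 listed promoters these shares were 12.4%, 33.8%, 32.7% and 6.02%. Those promoters were not limited to protein-coding genes that meet the count rule, so the shares are not like for like. A match is a description of letters and shows no binding.

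Duox1, which encodes dual oxidase 1, an enzyme that makes hydrogen peroxide at the surface of epithelial cells, lies 2.95 Mb from Fbn1 (122315672 to 122347972, plus strand). It stood at 11.4, 14.7 and 19.5 CPM in Tsk and at 6.73, 7.71 and 6.34 CPM in WT. Every Tsk library lay above every WT library, and Tsk replicate 6 was the highest. Duox1 rose by 1.14 ± 0.21 on the log2 scale, with a 95% interval from 0.65 to 1.62 (edgeR adjusted p = 0.0274). Duox1 was called in 2 of the 6 fits that left out 1 library. Its adjusted p in edgeR was 0.0568 without Tsk replicate 5, 0.0578 without Tsk replicate 6, 0.0537 without WT replicate 2 and 0.120 without WT replicate 3, with log2 fold changes of 0.91 to 1.30 over the 6 fits that left out 1 library. Without these libraries, in the same order, the share of all genes called was 1.96%, 1.91%, 1.59% and 0.305%, against 3.42% with all 6 libraries. Summed levels of 4 keratinocyte markers overlapped between the groups, at 2578 to 4890 CPM in Tsk and 3252 to 5179 CPM in WT, and none of the 4 was called or at 0.

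Stard9, known from human cells as a centrosomal kinesin needed in mitosis, lies 4.57 Mb from Fbn1 near the low end of the window (120629121 to 120731895, plus strand). It stood at 64.3, 74.0 and 104 CPM in Tsk and at 41.1, 42.4 and 42.2 CPM in WT. The WT libraries lay close together, and all 3 Tsk libraries lay above them. Stard9 rose by 0.95 ± 0.18 on the log2 scale, with a 95% interval from 0.54 to 1.36 (edgeR adjusted p = 0.0285). It was called in 4 of the 6 fits that left out 1 library and was not called without WT replicate 2 (0.97, edgeR adjusted p = 0.0740) or without WT replicate 3 (0.97, edgeR adjusted p = 0.119). It overlaps Cdan1 on the opposite strand. Whether the authors' counting used strand is not given in the sources used here, so reads in the overlap cannot be assigned. Cdan1 stood at 18.1 ± 2.95 CPM in Tsk and 15.3 ± 1.81 CPM in WT (SD, n = 3 each), and its log2 fold change was 0.24 ± 0.16 (edgeR adjusted p = 0.451).

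Il1b encodes interleukin 1 beta, an inflammatory cytokine made mainly by activated myeloid cells, and lies 3.86 Mb from Fbn1 (129364570 to 129371139, minus strand). It had 0, 1 and 1 counts in the Tsk libraries and 21, 41 and 9 counts in the WT libraries. Il1b reached the mean count of 10 only through the WT libraries, so a lower level in Tsk is partly built into its choice and its values are a description. The groups did not overlap, but the WT counts varied widely and too few libraries reached the filter's minimum. The summed counts were 2 in Tsk and 71 in WT, a depth-adjusted ratio of 0.0225 with an exact 95% interval of 0.00267 to 0.0844 that covers counting error only. Without the filter Il1b was called lower in Tsk, with a log2 fold change of -5.23 ± 0.79 (edgeR adjusted p = 0.000860), which depends on the prior count because Tsk was near 0. In the 4 fits with 1 library left out in which it was tested, the edgeR adjusted p was 0.0413 to 0.0650, and the call was lost without Tsk replicate 5 (0.0525) and without Tsk replicate 6 (0.0650). The neighbouring cytokine gene Il1a, 1 position towards Fbn1 in this set, stood at 1.87, 2.43 and 1.18 CPM in Tsk and 0.835, 0.907 and 0.870 CPM in WT. These groups did not overlap either, with Tsk above WT, though Il1a did not pass (1.06 ± 0.34, edgeR adjusted p = 0.124). Summed levels of 5 macrophage and myeloid markers overlapped, at 199, 255 and 433 CPM in Tsk and 224, 124 and 189 CPM in WT, with none of the 5 called and none at 0 CPM. Their log2 fold changes were 0.04 for Cd68, 0.07 for Ptprc, 0.23 for Adgre1, 0.84 for Lyz2 and 1.06 for Csf1r.

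**Figure D1:**
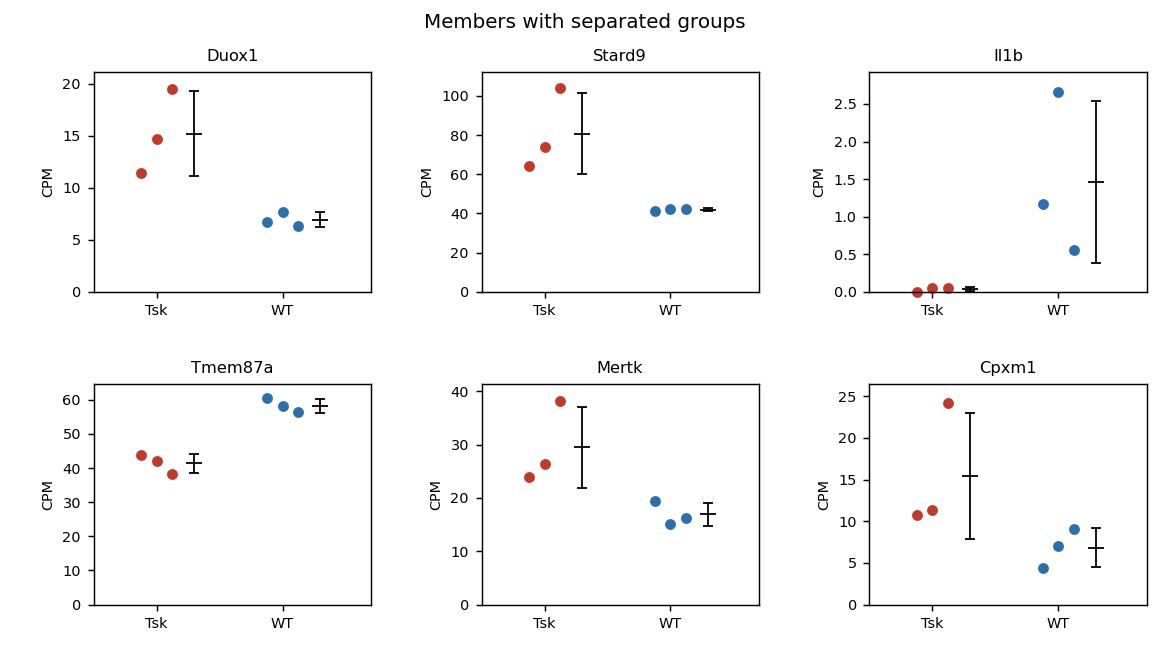
Each panel plots 1 gene in CPM (vertical axis, from 0) for the 3 Tsk libraries (red) and the 3 WT libraries (blue), with the mean and SD in black. In all 6 genes the groups do not overlap: Duox1, Stard9, Mertk and Cpxm1 are higher in Tsk, and Il1b and Tmem87a are lower. Duox1 and Stard9 passed the test, and Il1b was tested only without the filter.

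The genes nearest to Fbn1 were described one by one. Dut, which encodes the enzyme that clears dUTP from the nucleotide pool, ends 42 kb from Fbn1 on the low side. It stood at 6.32, 6.78 and 5.41 CPM in Tsk and at 5.84, 6.41 and 5.40 CPM in WT, so the groups overlapped almost completely. Its log2 fold change was 0.07 ± 0.17, with a 95% interval from -0.33 to 0.46 (edgeR adjusted p = 0.873). Cep152, a scaffold protein of centriole duplication, lies 55.1 kb away on the other side, beyond the 5' end of Fbn1. It stood at 8.35, 7.48 and 9.18 CPM in Tsk and at 10.3, 8.36 and 7.21 CPM in WT. The highest and the lowest of the 6 values were both WT, and the log2 fold change was -0.05 ± 0.18, with a 95% interval from -0.47 to 0.36 (edgeR adjusted p = 0.908). Both intervals exclude a 2-fold difference in either direction, and neither shows that the groups were equal.

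Beyond Cep152 come Shc4, an adaptor of receptor tyrosine kinases, and Eid1, an inhibitor of histone acetyltransferases that sits inside Shc4 on the opposite strand. Shc4 stood at 3.62 ± 0.695 CPM in Tsk and 2.79 ± 0.820 CPM in WT (SD, n = 3 each), with a log2 fold change of 0.37 ± 0.27. Eid1 stood at 46.2 ± 4.23 CPM in Tsk and 45.0 ± 5.37 CPM in WT (SD, n = 3 each), with a log2 fold change of 0.04 ± 0.13. Both pairs of groups overlapped. On the low side beyond Dut, Myef2, a nucleic acid-binding protein named for the myelin basic protein gene, stood at 10.9, 10.5 and 10.4 CPM in Tsk and 9.63, 7.71 and 9.57 CPM in WT. Its groups did not overlap, but its 95% interval from -0.10 to 0.58 included 0 (0.24 ± 0.15, edgeR adjusted p = 0.421).

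Sema6d, a transmembrane semaphorin that guides migrating cells, ends 633 kb from Fbn1 and had the smallest p of the 13 flanking genes within 1 Mb. It stood at 22.9, 27.9 and 25.8 CPM in Tsk and at 16.5, 18.1 and 19.2 CPM in WT. All Tsk libraries lay above all WT libraries, but Sema6d did not pass (0.51 ± 0.13, 95% interval 0.22 to 0.81, edgeR adjusted p = 0.0687). With DESeq2 it did (0.52, adjusted p = 0.0374), and over its 15 alternatives the adjusted p ran from 0.0136 to 0.190. Secisbp2l, a relative of the SECIS-binding protein of selenoprotein translation, and Galk2, a sugar kinase, were the other genes within 1 Mb, beside Sema6d and Myef2, with every Tsk library above every WT library. Their log2 fold changes were 0.33 ± 0.14 and 0.41 ± 0.15. Cops2, a subunit of the COP9 signalosome that trims regulators from ubiquitin ligases, overlaps the start of Galk2 on the opposite strand and was on the other side, at 45.1, 54.5 and 36.2 CPM in Tsk and 55.8, 64.0 and 59.4 CPM in WT (-0.40 ± 0.16). Gm17555, to which no role is given here, was also below WT in every Tsk library (-0.42 ± 0.16). None of these 4 passed, with edgeR adjusted p-values of 0.182 to 0.244.

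Fgf7, the keratinocyte growth factor that dermal fibroblasts supply to the epidermis, lies 527 kb from Fbn1. It stood at 3.10 ± 0.458 CPM in Tsk and 2.54 ± 0.431 CPM in WT (SD, n = 3 each), with overlapping groups and a log2 fold change of 0.29 ± 0.23 (edgeR adjusted p = 0.544). Summed levels of 5 fibroblast markers did separate the groups, at 12929, 11455 and 29859 CPM in Tsk and 3964, 5952 and 6639 CPM in WT, and all 5 had log2 fold changes above 0, with none called and none at 0. Most of each sum came from Col1a1 and Col1a2, whose groups did not overlap. The groups overlapped for Pdgfra (51.0 to 92.1 CPM in Tsk, 27.9 to 57.9 in WT), Dcn (155 to 284 and 85.7 to 163) and Lum (37.7 to 46.8 and 22.8 to 40.2). In whole skin, a different number of cells of a type and a different amount of RNA per cell cannot be told apart. The 2 remaining genes within 1 Mb were Dtwd1 and Atp8b4, with log2 fold changes of -0.19 ± 0.26 and -0.51 ± 0.39.

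**Figure D2:**
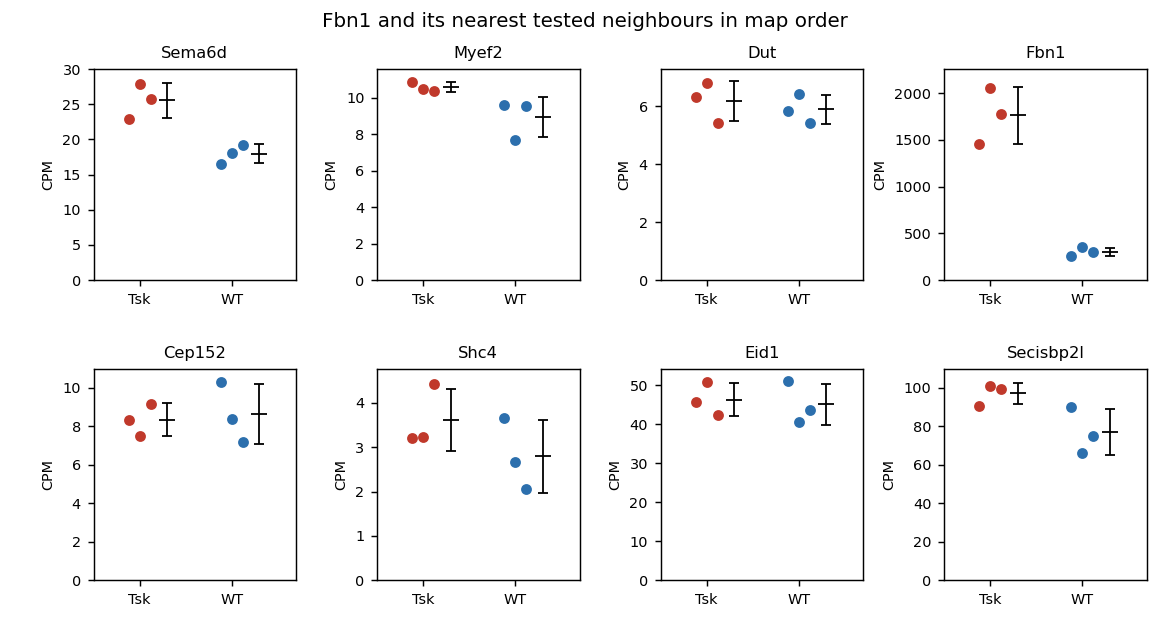
Each panel plots 1 gene in CPM (vertical axis, from 0) for the 3 Tsk libraries (red) and the 3 WT libraries (blue), with the mean and SD in black, for Fbn1 and 7 of its nearest tested neighbours in map order. Fbn1 is at 1450 to 2053 CPM in Tsk and 261 to 351 CPM in WT, while Dut, Cep152, Shc4 and Eid1 overlap between the groups.

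Read by distance between gene spans, none of the 13 tested genes under 1 Mb from Fbn1 was called, 1 of 38 at 1 to 3 Mb was, and 1 of 65 beyond 3 Mb was. Over all genes tested 3.42% were called, and among as few as 13 genes 0 called does not show a lower share. Groups did not overlap for 4 genes higher and 2 lower under 1 Mb, 7 and 1 at 1 to 3 Mb, and 11 and 9 beyond 3 Mb. Over all genes tested these shares were 14.1% higher and 10.6% lower. The median size of the log2 fold change, without its sign, was 0.33 under 1 Mb, 0.23 at 1 to 3 Mb and 0.22 beyond 3 Mb, beside 0.24 over all genes tested. The largest log2 fold changes under 1 Mb were 0.51 and -0.51. For 12 of these 13 genes the 95% interval lay wholly between -1 and 1, as it did for 89 of all 116 flanking genes tested. At 1 to 3 Mb the fold changes ran from -0.68 to 2.10, and beyond 3 Mb from -1.76 to 1.18. Neither extreme was called, and both are described below.

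Over the whole window the median log2 fold change was -0.03, which is also the median of all genes tested. The middle of the distribution ran from a lower quartile of -0.21 to an upper quartile of 0.29, against -0.24 to 0.25 over all genes tested and -0.21 to 0.25 over the 1122 tested protein-coding genes on the rest of chromosome 2 with the same mean count. On the rest of the chromosome 44 genes were called, which is 3.92% (3.21% higher and 0.713% lower). Of the 15005 such genes outside the window, on any chromosome, 4.25% were called, 3.51% higher and 0.74% lower, 23.1% had an unadjusted edgeR p under 0.05 and 27.4% had groups that did not overlap. Changes of over 2-fold were fitted for 5 flanking genes (4.31%), against 5.61% on the rest of the chromosome and 6.11% over all genes tested. The 3 Tsk libraries lay wholly above or below the 3 WT libraries in 34 flanking genes (29.3%), 22 above (19.0%) and 12 below (10.3%), against 28.9% on the rest of the chromosome and 24.7% over all genes tested. The 22 include Ebf4, which reached the mean count of 10 only through the Tsk libraries (18, 23 and 22 counts, against 10, 13 and 5 in WT). The flanking genes lay near these backgrounds in the median, the quartiles and the share with separated groups, while their share called, 1.72%, was below all 3 backgrounds and rests on 2 genes. Counts above or below 0 hold for TMM scaling, since scaling by library totals alone moved the median of all genes to 0.25.

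**Figure D3:**
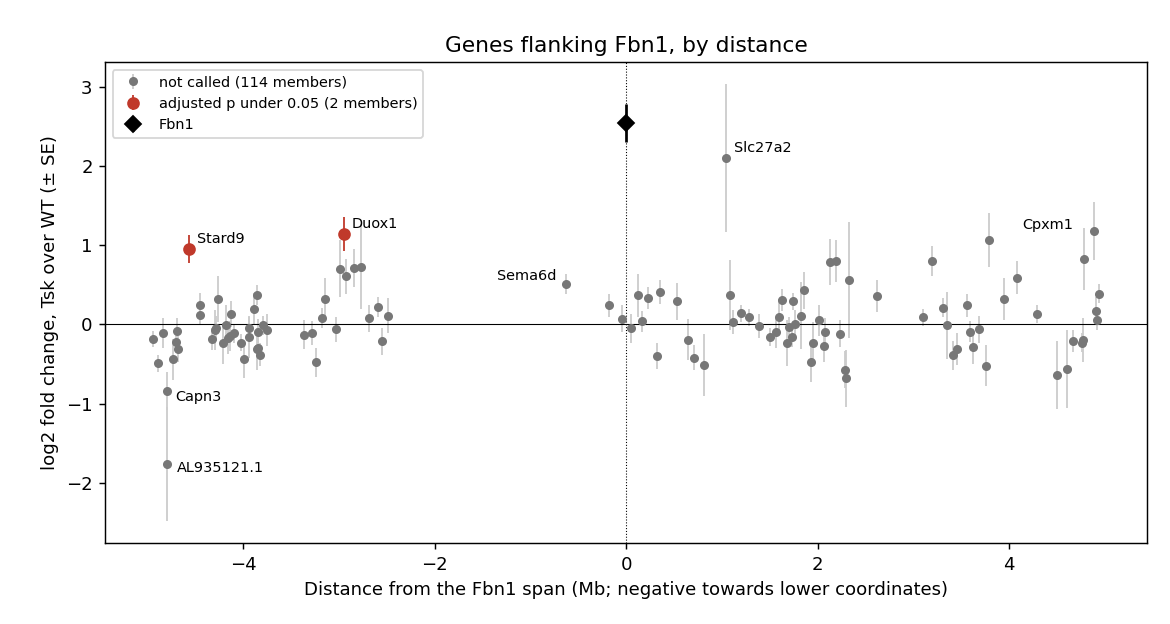
Points give the log2 fold change of Tsk over WT with its SE (vertical axis) for each of the 116 tested flanking genes against its distance from the Fbn1 span in Mb (horizontal axis, negative towards lower coordinates). Duox1 and Stard9, in red, passed the test, Fbn1 is the black diamond at 2.54, and the genes within 1 Mb lie between -0.51 and 0.51.

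**Figure D4:**
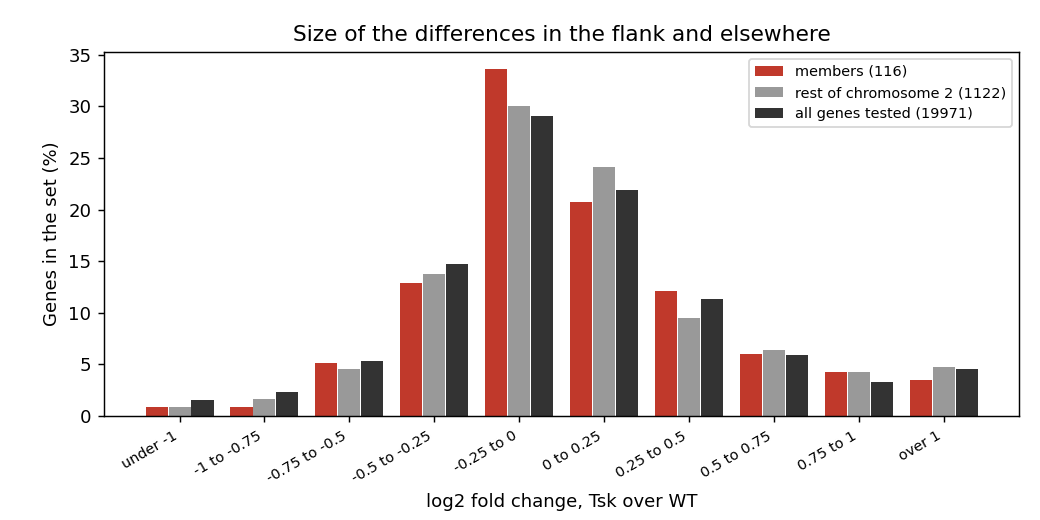
Bars give the percent of genes (vertical axis) in each class of log2 fold change of Tsk over WT (horizontal axis) for the 116 tested flanking genes, the 1122 protein-coding genes on the rest of chromosome 2 and all 19971 genes tested. The classes from -0.25 to 0 and from 0 to 0.25 hold 33.6% and 20.7% of the flanking genes, against 29.1% and 21.9% of all genes tested.

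On the low side of Fbn1, 31 of 40 genes beyond 3 Mb had log2 fold changes below 0, with a median of -0.11, and 8 of 9 genes at 1 to 3 Mb were above 0, with a median of 0.61. Over all genes tested, 10583 of 19971 lay below 0, and the difference between these stretches was not tested. A run of 5 genes makes up most of the second group, picked here after their values were seen. They are Duoxa1, Duox1, Shf, Slc28a2 and Slc28a2b, which span 226 kb and had log2 fold changes of 0.61 to 1.14. Duox1 was called and the other 4 were not. Duoxa1, the maturation factor that carries Duox1 out of the endoplasmic reticulum, starts next to Duox1 on the opposite strand and stood at 3.37, 3.04 and 6.59 CPM in Tsk and 3.56, 2.53 and 1.86 CPM in WT (0.70 ± 0.36, edgeR adjusted p = 0.320). Its groups overlapped, and Tsk replicate 6 was the highest for both genes. Shf, an adaptor protein of receptor tyrosine kinase signalling, stood at 5.64 ± 1.25 CPM in Tsk and 3.69 ± 0.189 CPM in WT (SD, n = 3 each), with separated groups (0.61 ± 0.22, edgeR adjusted p = 0.163). Slc28a2, a concentrative nucleoside transporter, stood at 6.58, 12.5 and 9.36 CPM in Tsk and 6.51, 5.70 and 5.16 CPM in WT, and Slc28a2b is its close relative, so reads may be split between them. On the high side of Fbn1 the median was 0.03 over 64 genes, with none called.

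Genes of matrix and growth factors had 0 of 6 tested members called, with a median log2 fold change of 0.14. Cpxm1, a secreted carboxypeptidase-like protein that binds collagen, stood at 10.8, 11.3 and 24.2 CPM in Tsk and at 4.40, 7.06 and 9.01 CPM in WT. Its Tsk libraries all lay above WT, with replicate 6 far above the others, and it did not pass (1.18 ± 0.37, edgeR adjusted p = 0.122). Without Tsk replicate 6 its log2 fold change was 0.70 (edgeR adjusted p = 0.254), and over its 15 alternatives the adjusted p ran from 0.0207 to 0.287. The summed fibroblast markers, given above and mostly Col1a1 and Col1a2, were also highest in Tsk replicate 6, and their part in the Cpxm1 value was not tested. Fbln7, a fibulin of the cell surface and matrix, stood at 6.07, 5.70 and 7.29 CPM in Tsk and 2.34, 9.27 and 7.64 CPM in WT, where replicate 1 was low (-0.01 ± 0.42). Mfap1a and Mfap1b are a pair of near-identical genes whose names recall microfibrils, although the protein is known as a spliceosome component, and reads may be split between the copies. Mfap1b was at 25.1 ± 3.26 CPM in Tsk and 32.7 ± 2.88 CPM in WT (SD, n = 3 each), and Mfap1a at 35.6 ± 3.93 CPM in Tsk and 35.9 ± 0.481 CPM in WT. Neither passed, at -0.38 ± 0.14 and -0.01 ± 0.12.

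In the list of epidermal cross-linking and barrier genes, Duox1 was the 1 of 10 tested members called, and the median was 0.02. Tgm3, the transglutaminase that cross-links hair and cornified envelope proteins, stood at 3.89, 3.32 and 9.55 CPM in Tsk and at 11.9, 9.01 and 5.28 CPM in WT. The groups overlapped through Tsk replicate 6 and WT replicate 3 (-0.64 ± 0.43, edgeR adjusted p = 0.461). The 4 markers of the hair inner root sheath and shaft summed to 9.85, 21.2 and 11.3 CPM in Tsk and 2.23, 1.49 and 0.559 CPM in WT, with 3 of them called higher, and their part in the Tgm3 and Duox1 values was not tested. Mal, a membrane protein of apical transport and myelin, stood at 6.58, 9.40 and 11.6 CPM in Tsk and 7.12, 3.63 and 5.09 CPM in WT (0.79 ± 0.29, edgeR adjusted p = 0.169), and its relative Mall, the next gene along, had a log2 fold change of 0.80 ± 0.26. The other transglutaminases Tgm5, Tgm6 and Tgm7 had log2 fold changes of -0.24 ± 0.26, -0.56 ± 0.49 and -0.01 ± 0.25.

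Of 11 immune and inflammatory genes 10 were tested and none was called, with a median of 0.36 and 8 above 0. Over all genes tested 9388 of 19971 lay above 0, and no difference from this was tested. Mertk, the receptor by which macrophages take up dying cells, stood at 23.9, 26.4 and 38.2 CPM in Tsk and at 19.4, 15.2 and 16.2 CPM in WT. The groups did not overlap, and Mertk fell short of the threshold (0.80 ± 0.19, edgeR adjusted p = 0.0622). It passed with DESeq2 (0.80, adjusted p = 0.00789) and without the filter (0.80, edgeR adjusted p = 0.0122), with adjusted p-values of 0.00789 to 0.212 over its 15 alternatives. Sirpa, the macrophage receptor for the signal CD47, stood at 52.5, 58.3 and 79.4 CPM in Tsk and 49.5, 31.9 and 45.1 CPM in WT, also without overlap (0.59 ± 0.21, edgeR adjusted p = 0.158). The summed macrophage markers, given with Il1b, were likewise highest in Tsk replicate 6 and lowest in WT replicate 2, and their part in these values was not tested. B2m, the light chain of class I antigen presentation, was the most abundant per length of the 113 flanking genes with a known exon length, at 197 CPM per kb, and stood at 188 ± 45.4 CPM in Tsk and 151 ± 48.9 CPM in WT (SD, n = 3 each), with overlapping groups (0.32 ± 0.26). Hdc, the histamine-forming enzyme of mast cells, stood at 1.09, 1.96 and 3.01 CPM in Tsk and 1.11, 2.46 and 1.18 CPM in WT (0.37 ± 0.44), while 5 mast cell markers summed to 11.1 to 22.4 CPM in Tsk and 7.18 to 9.01 CPM in WT.

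In the list of muscle and mitochondrial metabolism, none of 9 tested members was called, 5 of the 9 lay above 0 and the median was 0.01. Capn3, the muscle calpain, stood at 44.1, 42.4 and 32.6 CPM in Tsk and at 47.1, 90.8 and 74.7 CPM in WT. The groups did not overlap, but WT replicate 1 lay close to Tsk, and Capn3 did not pass (-0.84 ± 0.24, edgeR adjusted p = 0.0945). Without WT replicate 1 it passed, at -1.04 (edgeR adjusted p = 0.0145), as it did with DESeq2, and over its 15 alternatives the adjusted p ran from 0.0145 to 0.262. Zfp106 and Mtln stand in other lists or in none and are set beside Capn3 here after their values were seen. Zfp106, an RNA-binding zinc finger protein needed by muscle and its nerves, stood at 905, 886 and 703 CPM in Tsk and 766, 1376 and 1237 CPM in WT (-0.44 ± 0.26, edgeR adjusted p = 0.397). Mtln, the mitochondrial micropeptide mitoregulin, which is abundant in muscle and heart, stood at 11.4, 13.9 and 9.08 CPM in Tsk and 12.2, 21.5 and 17.5 CPM in WT (-0.57 ± 0.23). All 3 were highest in WT replicate 2, next highest in WT replicate 3 and lowest in Tsk replicate 6. The 7 skeletal muscle markers summed to 47235, 39738 and 38725 CPM in Tsk and 50263, 91461 and 79258 CPM in WT, with 5 of the 7 below 0, none called and none at 0. Their part in the values of Capn3, Zfp106 and Mtln was not tested. AL935121.1, which had the lowest fold change of the 116 flanking genes that passed the filter, at -1.76 ± 0.72, overlaps Capn3 and Ganc on the same strand, and its level of 0.486 ± 0.284 CPM in Tsk and 1.66 ± 1.23 CPM in WT (SD, n = 3 each) cannot be separated from theirs with certainty.

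The muscle and mitochondrial list also holds Slc27a2, which activates and imports very long-chain fatty acids, had the largest positive fold change of the 116 flanking genes tested and lies 1.04 Mb from Fbn1. Slc27a2 stood at 0.622, 5.80 and 0.612 CPM in Tsk and 0.556, 0.454 and 0.621 CPM in WT. Its counts were 12, 124 and 13 in Tsk and 10, 7 and 10 in WT. It reached the mean count of 10 only through the Tsk libraries, so a higher level there is partly built into its choice. Tsk replicate 5 alone was high, and the log2 fold change of 2.10 ± 0.93 was 0.18 without it (edgeR adjusted p = 0.885, from 0.101 to 0.885 over its 15 alternatives). The 5 adipocyte markers summed to 375, 1658 and 257 CPM in Tsk and 122, 149 and 104 CPM in WT, so they too were highest in Tsk replicate 5, with 1 of the 5 called higher and none at 0. Their part in the Slc27a2 value was not tested. Gatm, which makes the precursor of creatine, stood at 9.53 ± 1.01 CPM in Tsk and 9.03 ± 1.38 CPM in WT (SD, n = 3 each, 0.08 ± 0.17).

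**Figure D5:**
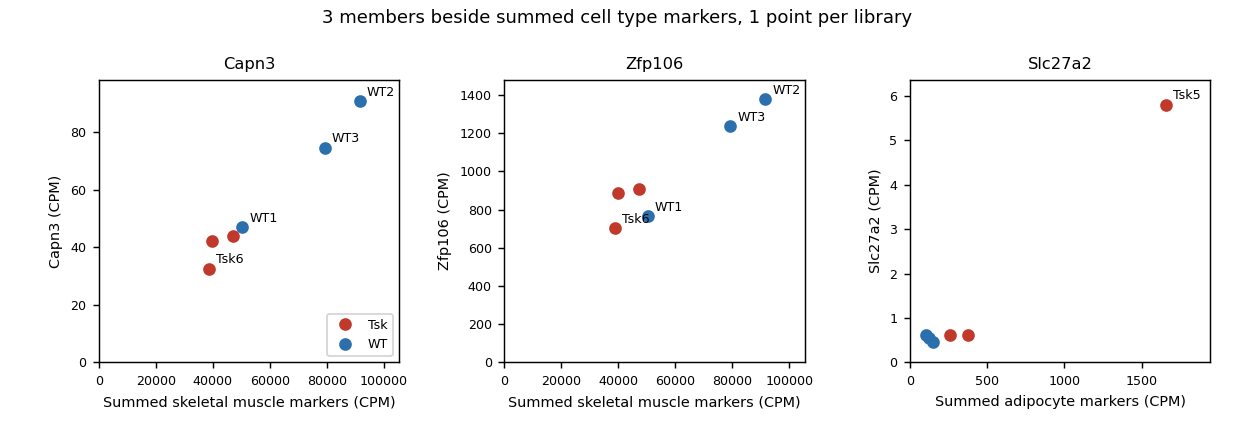
Each panel plots a gene's CPM (vertical axis) against summed marker genes in CPM (horizontal axis), both axes from 0, with 1 point per library, Tsk in red and WT in blue. Capn3 and Zfp106 are highest in WT2 and WT3 (WT replicates 2 and 3), where the muscle markers are at 91461 and 79258 CPM, and Slc27a2 is high only in Tsk5 (Tsk replicate 5), where the adipocyte markers are at 1658 CPM.

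Of 17 tested genes of RNA processing, transcription and translation, none was called and 14 lay below 0, with a median of -0.17. Over all genes tested 10583 of 19971 lay below 0 under the same TMM scaling, and no difference from this was tested. Of the 17, Eif3j1, a subunit of a translation initiation factor, stood at 25.8 ± 2.57 CPM in Tsk and 36.0 ± 8.03 CPM in WT (SD, n = 3 each, -0.48 ± 0.18, edgeR adjusted p = 0.177). None of 11 cell division genes was called, with a median of -0.07. Bub1, the spindle checkpoint kinase, and Ckap2l, a mitotic spindle protein, had log2 fold changes of -0.68 ± 0.36 and -0.52 ± 0.26, with overlapping groups. None of 7 ubiquitin and protein folding genes was called. Groups did not overlap in 4 of the 7, 2 higher and 2 lower in Tsk. Over all genes tested 24.7% had such groups, 14.1% higher and 10.6% lower, and no difference from this share was tested. Pdia3, a disulfide isomerase of the endoplasmic reticulum, stood at 113 ± 7.31 CPM in Tsk and 87.4 ± 6.38 CPM in WT (SD, n = 3 each), with separated groups (0.37 ± 0.13, edgeR adjusted p = 0.148). Pdia3 overlaps Catsper2, and Eif3j1 overlaps Spg11, on the opposite strand. Serf2, a small protein of the same list, stood at 137 ± 9.21 CPM in Tsk and 145 ± 24.9 CPM in WT (SD, n = 3 each). It overlaps Hypk, a ribosome-bound chaperone subunit, on the same strand, so their reads may be shared, and Hypk had a log2 fold change of -0.30 ± 0.12 with separated groups.

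None of 7 genes of pigment, zinc and lysosome-related organelles was called, with fold changes from -0.22 to 0.22. This list holds Bloc1s6, the gene mutated in the pallid coat colour mouse, which stood at 13.3, 15 and 11.5 CPM in Tsk and 14.2, 13.7 and 18.2 CPM in WT. The groups overlapped (-0.21 ± 0.17, 95% interval -0.59 to 0.16, edgeR adjusted p = 0.530). Summed levels of 5 melanocyte markers were 10.1 to 15.7 CPM in Tsk and 6.61 to 7.57 CPM in WT. Of the 4 markers tested, 3 lay above 0 and 1 below, and none was called. Vps39, Snap23 and Ap4e1, of the same gene list as Bloc1s6, were below WT in every Tsk library, by -0.18 ± 0.10, -0.22 ± 0.12 and -0.16 ± 0.11. All 3 of their 95% intervals included 0, with edgeR adjusted p-values of 0.363 to 0.471. Over all genes tested 10.6% had groups separated in this direction, and no difference from this share was tested. Of 6 ion and nutrient transport genes none was called, with a median of 0.16. The 40 tested genes in no list held Stard9 as the 1 called gene and had a median of 0.12. Among them Tmem87a, a Golgi membrane protein picked after its values were seen, came nearest to the threshold of the tested flanking genes that missed it, and it was called with DESeq2 and with upper-quartile factors. It stood at 43.9, 42.1 and 38.4 CPM in Tsk and at 60.4, 58.1 and 56.4 CPM in WT. The groups lay well apart relative to their spread, and the log2 fold change was -0.49 ± 0.11 (95% interval -0.75 to -0.24, edgeR adjusted p = 0.0510). It overlaps Ganc on the opposite strand.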

How the data were processed

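Skin RNA from 3 Tsk and 3 WT samples was analysed, grouped by the sample titles. Per the labels' protocols, a stranded kit that removes ribosomal RNA made the libraries. Per the submitters' processing notes, bcl2fastq 2.19.1.403, STAR and Partek 7.0 were used on mm10. How reads were counted, and with which strand setting, was not stated there. The authors deposited expected counts per gene, made with these tools and not normalized. Between 34.8% and 37.3% of a library's values had a fraction, and all were rounded. CPM, also deposited, differed by at most 0.474% from scaled counts with 0.0001 added and served in an alternative. No 2 libraries agreed within sampling noise, the smallest chi-square over its degrees of freedom in either group being 8.85.

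The test was edgeR 4.0.16 under R 4.3.3 (quasi-likelihood F-test, TMM, default filter with minimum count 10 and minimum total 15) over all 19971 genes that passed, with Benjamini-Hochberg adjustment over all of them and a threshold of 0.05. SE is the log2 fold change divided by the square root of F, and intervals are 95%. The same test was run afterwards on counts simulated from the levels and dispersions fitted to the real data. The outcome of that run is not given here. Exon lengths came from GENCODE M21, which matched 113 of 117 genes by symbol, span and strand. Of the 117, 25 overlap another on the opposite strand and 7 on the same strand. Reads carry no molecular identifiers, so counting intervals cover counting error only. The genes, lists and tests were chosen with earlier results of these data known. Genes named were those called, the 3 nearest on each side, the 5 largest changes each way at a mean of at least 1 CPM, the 3 most abundant, 2 per list by smallest p and 15 chosen for known roles, of which Slc24a5 is not among the 117. Others described beside them were chosen after their values were seen. Alternatives were other scalings, filters, DESeq2 1.42.0, limma 3.58.1 (voom, and trend on log2 of CPM plus 0.1 or 1) and leaving out each library.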

Additional observations from a re-analysis of the deposited data

How the results depend on the processing

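Duox1 and Stard9 were called in all 9 alternatives that kept the 6 libraries. The number of flanking genes called was 8 with DESeq2 (5 higher, 3 lower), 10 with library totals alone and with limma-trend at either pseudocount (all 10 higher), 4 without a filter (1 lower), and 3 (1 lower) with a filter at a mean count of 10 and with upper-quartile factors. The lower gene was Il1b without a filter and with the filter at a mean count of 10, and Tmem87a with upper-quartile factors. Il1b was also 1 of the 3 lower with DESeq2. Its WT counts alone brought it into the set, so these lower calls of Il1b are a description. The share of all genes called was 6.98% with DESeq2, 8.97% with library totals and 9.45 to 9.49% with limma-trend. This share was 3.32% without a filter, 3.35% with a filter at a mean count of 10 and 3.33% with upper-quartile factors. Within 1 Mb of Fbn1, 1 gene, Sema6d, was called with DESeq2, with library totals and with limma-trend at either pseudocount. Library totals moved the median of all genes to 0.25 and that of the flanking genes to 0.25 also. With limma-trend, run on the deposited CPM without TMM, the flanking median was 0.25 (pseudocount 0.1) and 0.23 (pseudocount 1). The median of all genes was 0.25 and 0.20 in these 2 fits. Small falls turned round where the median of all genes also rose, and Fbln7 moved further than that median. With library totals Cep152 stood at 0.21, Serf2 at 0.20, Snap23 at 0.07, Vps39 at 0.09, Trp53bp1 at 0.04, Bloc1s6 at 0.06, Mfap1a at 0.26 and Fbln7 at 0.32. With limma-trend at 0.1 they stood at 0.24, 0.20, 0.07, 0.10, 0.05, 0.07, 0.26 and 0.47, and at 1 at 0.21, 0.20, 0.07, 0.09, 0.04, 0.07, 0.25 and 0.38. Fbln7 was 0.23 with limma-voom and Eid1 0.00 with upper-quartile factors. Leaving out 1 library gave 0 to 5 called genes, 0 to 3 higher and 0 to 2 lower, none within 1 Mb, with flanking medians of -0.05 to 0.06. The count was 0 without WT replicate 2 (1.59% of all genes called), 1 without WT replicate 3 (0.305%) and 1 without Tsk replicate 5 (1.96%). It was 3 without Tsk replicate 4 (2.57%), 3 without Tsk replicate 6 (1.91%) and 5 without WT replicate 1 (6.72%). Il1b was the 1 lower gene without WT replicate 3 and without Tsk replicate 4. Over these fits the sign changed for Dut (-0.01 to 0.16), Cep152 (-0.16 to 0.12), Eid1 (-0.04 to 0.16), Serf2 (-0.20 to 0.01), Hdc (-0.04 to 0.83), Mfap1a (-0.06 to 0.08), Fbln7 (-0.39 to 0.37) and Gatm (-0.04 to 0.18), none of them called. Where a count moved, the cause was not tested. No paired analysis was possible because the replicate numbers of the groups do not overlap. Counts per library limit the smallest genes, such as Il1b and Slc28a2b.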
